A study of Mus musculus with 4 samples.

Results

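The response of alveolar type II (AT-II) cells to a distant tumor was compared between wild-type (WT) and Tlr3-deficient (Tlr3-/-) mice. For each gene, the log2 change with tumor in Tlr3-deficient cells minus the log2 change with tumor in WT cells was computed, and this value is called the difference below. All 4 arrays of the series enter it, and 15279 genes were measured well above background on all 4 arrays and lie off chromosomes X and Y. Changes keep their sign, so a difference of 1 is a change 2-fold higher in Tlr3-deficient cells, and a difference of -1 is one 2-fold lower. A positive difference can come from a greater rise or a lesser fall with tumor, and a negative one from the reverse. A gene is counted as higher or lower when its difference passed 2-fold.

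AT-II cells make and recycle surfactant and renew the alveolar epithelium. TLR3 is an endosomal receptor that binds double-stranded RNA and signals through the adaptor TICAM1 to interferon regulatory factors and NF-kB, leading to interferons and chemokines. Chemokines of epithelial cells attract neutrophils and monocytes to the lung, and MHC class I molecules, which display peptides to T cells, are among the genes that interferons induce.

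Lewis lung carcinoma (LLC), a mouse lung tumor cell line, was placed under the skin of WT and Tlr3-/- mice, and lungs were taken 2 weeks later. Mice of both genotypes without tumor were the controls, which gives 4 groups. AT-II cells were sorted by flow cytometry, and all 4 samples are labelled female. Each group had 1 array, so there is no replicate check and no p-value. Strain, age, sort markers and the number of mice per array are not stated.

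The library labelled Tlr3-deficient without tumor goes against its sex label. Of 4 Y-linked genes examined (Ddx3y, Eif2s3y, Uty, Kdm5d), it detected all 4, and the other arrays detected 0. Xist, the noncoding RNA of X inactivation in female cells, had a log2 level of -4.05 on it, against 4.06, 4.04 and 3.796 on the others. No difference can be formed without this array. The genotype gap between the 2 tumor-bearing arrays does not use it, and is given beside most gene lists with several calls. The arrays of WT with tumor and Tlr3-deficient without tumor shared a slide, and the other arrays lay on 1 slide each. Since the difference subtracts exactly the 2 arrays of that shared slide, slide and genotype dependence cannot be told apart. Both Tlr3 probes (mm9 chr8:46481729-46481788 and chr8:46482009-46482068) were lower on the Tlr3-deficient arrays and were not well above background on the one without tumor, so Tlr3 was not among the measured genes. Levels at the first of these probes were -3.92 and -3.95 in WT and -5.45 and -5.30 in Tlr3-deficient cells, without and with tumor. Repeated spots of 169 probes gave a standard deviation of 0.298 for the difference, which covers spot error only.

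Over all genes the median difference was 0.03, with quartiles of -0.27 and 0.28, and 52.6% of genes had a difference above 0. The difference was at least 2-fold higher for 335 genes (2.19% of those measured) and at least 2-fold lower for 664 (4.35%). In WT cells 517 genes passed 2-fold upward with tumor (3.38%) and 144 downward (0.942%), and in Tlr3-deficient cells 436 did so upward (2.85%) and 335 downward (2.19%). Of the 999 calls in the difference, 33.5% were higher. Centring the arrays on their medians moved the median difference to 0.18 and that share to 51.8%, so the balance of the 2 directions depends on the scaling.

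The calls were sorted by what each genotype did alone. Among lower genes, 251 passed 2-fold in WT only, 132 in Tlr3-deficient cells only, 12 in opposite directions, 10 in both the same way and 259 in neither alone. Among higher genes 46 passed in WT only, 145 in Tlr3-deficient cells only, 3 in opposite directions and 18 in both, and the remaining 36.7% in neither. The array farthest from the median of the other 3 was WT without tumor for 52.6% of the lower genes, against 35.3% of all genes. For higher genes it was Tlr3-deficient without tumor for 38.2% and Tlr3-deficient with tumor for 34.6%, against 25.9% and 23% of all genes.

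**Figure D1:**
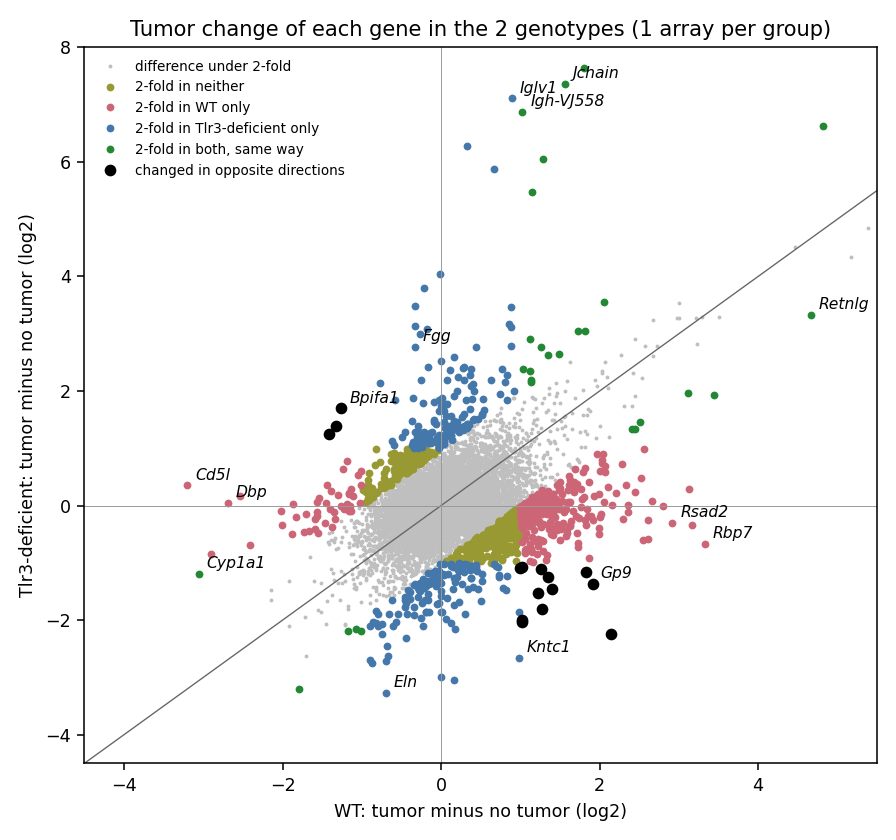
Log2 tumor change in WT cells (horizontal axis) and in Tlr3-deficient cells (vertical axis) of 15279 genes, 1 point each, coloured by which genotype passed 2-fold, with the line of equal change. Antibody genes lie far above the line, and the 12 genes higher in WT but lower in Tlr3-deficient cells lie at the lower right.

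**Figure D2:**
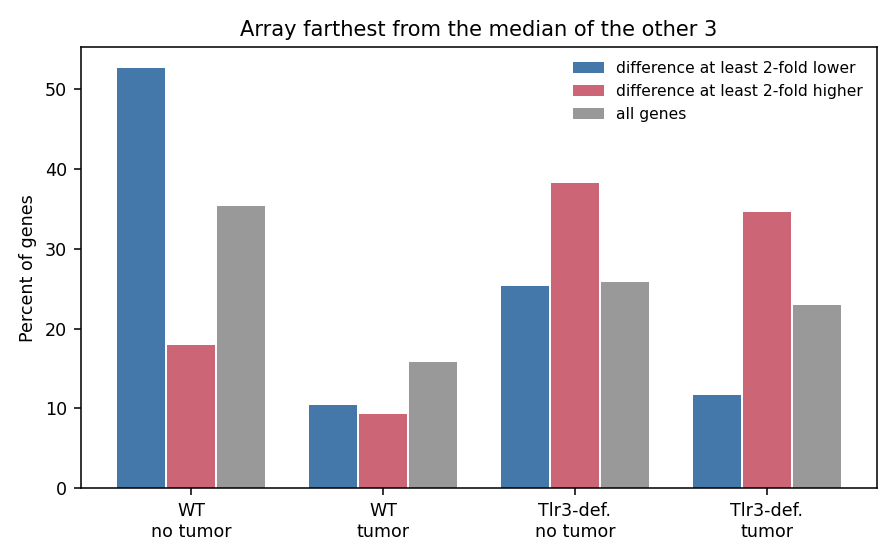
For each array, the percent of genes for which it lay farthest from the median of the other 3, for genes with a lower difference, a higher difference and all 15279 genes. The WT array without tumor stands out for the lower genes, at 52.6%.

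Platelet genes changed in opposite directions. Levels are listed as WT tumor-free, WT tumor-bearing, Tlr3-deficient tumor-free and Tlr3-deficient tumor-bearing throughout. Gp9 (mm9 chr6:87729650-87729709), a subunit of the von Willebrand factor receptor, had log2 levels, relative to each array's 75th percentile, of -3.25, -1.33, -0.15 and -1.51. It was therefore lowest without tumor in WT and highest without tumor in Tlr3-deficient cells, while the tumor-bearing arrays lay close together. Its tumor changes were 1.91 and -1.36, a difference of -3.28. Clec1b, the platelet receptor for podoplanin, followed with levels of -2.66, -1.26, 0.01 and -1.44 and a difference of -2.85. Treml1, a platelet granule receptor, had a difference of -2.38. Of the 12 genes that were higher in WT and lower in Tlr3-deficient cells (0.0785% of those measured), these 3 were platelet genes.

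Of 20 platelet and megakaryocyte genes, 15 were measured, 10 were lower and 0 higher, and all 15 differences were below 0, with a median of -1.25. Ppbp, the platelet precursor of a neutrophil-attracting chemokine, had a difference of -2.46, and Pf4, platelet factor 4, one of -1.35. The median genotype gap was 1.50 between the tumor-free arrays and 0.11 between the tumor-bearing ones. In sorted cells, fewer cells of a type and less RNA per cell cannot be told apart.

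Red cell genes were also lower in the difference, but mostly through a tumor change in WT. Slc4a1, the anion exchanger of the red cell membrane, had levels of -2.95, 0.21, -1.47 and -1.81, so WT with tumor stood above the other arrays. Its difference was -3.50. Ahsp, the chaperone of free alpha globin, differed by -3.19. The adult alpha globin Hba-a1 had levels of 7.02, 7.86, 8.02 and 6.80, and was at least 2-fold lower with tumor only in Tlr3-deficient cells. Of 24 red cell genes 12 were measured, with 6 lower, 0 higher and a median of -1.25, and the median genotype gap was 0.48 without tumor and -0.77 with tumor. The embryonic globin Hbb-y was among the 12 opposite genes, with changes of 1.35 and -1.25.

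The other named opposite genes in this direction came from several functions, and the last 2 of the 12 carried no gene symbol. Rec114, needed for meiotic DNA breaks, had the lowest difference of any gene, -4.39, with levels of -4.49, -2.35, -1.98 and -4.23. The fast skeletal muscle troponins Tnnc2 and Tnni2 had differences of -3.05 and -2.98. Krt14, a keratin of basal epithelial cells, had a difference of -3.08, and its partner Krt5 one of -1.93. Diaph3, an actin-nucleating formin, and Mpped2 had differences of -2.09 each, and a second probe of Diaph3 gave -0.36. The genes beyond the first 5 in this direction (Clec1b, Hbb-y, Treml1, Diaph3 and Mpped2) were named after their values were seen.

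The 3 genes that were lower in WT and higher in Tlr3-deficient cells (0.0196%) were all airway or xenobiotic genes. Bpifa1, a secreted airway antimicrobial protein, had levels of 4.68, 3.42, 1.82 and 3.52, and a difference of 2.96. Its tumor-bearing arrays were nearly level, and the tumor-free arrays were apart. The cytochromes Cyp2a4 and Cyp2a5, which oxidise steroids and coumarin, had differences of 2.72 and 2.67. Levels of Cyp2a5 were 3.02, 1.61, 2.04 and 3.30. The genes are near-identical copies, so their probes may not separate them. Their RefSeq promoter windows (GRCm38.p6, 300 bases around the start, plus strand, chr7:26306942-26307241 for Cyp2a4 and chr7:26835089-26835388 for Cyp2a5) are shown for this likeness. When shifted by 1 base, they are identical at 294 of 299 positions (98.3%).
Cyp2a4: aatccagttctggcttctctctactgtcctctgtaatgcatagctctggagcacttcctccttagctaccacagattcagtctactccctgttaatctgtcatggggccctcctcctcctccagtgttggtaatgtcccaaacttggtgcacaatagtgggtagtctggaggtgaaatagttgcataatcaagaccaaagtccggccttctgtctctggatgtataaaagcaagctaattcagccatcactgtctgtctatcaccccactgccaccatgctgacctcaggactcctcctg
Cyp2a5: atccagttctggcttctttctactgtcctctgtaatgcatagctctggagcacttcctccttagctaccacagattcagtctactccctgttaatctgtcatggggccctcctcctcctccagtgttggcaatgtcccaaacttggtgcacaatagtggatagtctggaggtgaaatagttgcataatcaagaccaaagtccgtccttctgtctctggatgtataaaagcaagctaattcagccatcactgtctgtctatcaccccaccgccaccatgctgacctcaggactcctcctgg

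Detoxification lists had more higher than lower genes. Of 25 measured cytochrome P450 genes 7 were higher and 0 lower, with a median of 0.29 and genotype gaps of -0.20 without and 0.17 with tumor. Of 30 NRF2 antioxidant genes 4 were higher and 1 lower, with a median of 0.26 and gaps of -0.40 and -0.06. Gclc, the catalytic subunit of glutathione synthesis, had levels of 6.42, 5.59, 4.43 and 5.14, so the genotypes changed in opposite directions but neither passed 2-fold, and its difference was 1.54. Airway lists differed among themselves. Of 19 club and secretory cell genes 5 were higher and 2 lower, with a median of 0.56. The secretoglobins Scgb3a1 and Scgb3a2 had differences of 1.42 and 1.13, and the median genotype gap of the list was -0.65 without tumor and -0.21 with tumor. Of 8 basal and neuroendocrine airway genes 2 were lower and 0 higher, with a median of -0.61 and gaps of 0.19 without and -0.59 with tumor. Of 18 airway antimicrobial genes 3 were higher and 2 lower, with a median of 0.15 and gaps of -0.34 and -0.23.

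Among genes with a symbol, antibody genes had the highest differences. Iglv1, an antibody light chain variable gene, had levels of -0.97, -0.08, -3.80 and 3.31 and a difference of 6.22. Jchain, which links antibodies into polymers, had levels of -2.75, -1.18, -4.03 and 3.33 and a difference of 5.80. The Tlr3-deficient array with tumor was highest and the Tlr3-deficient array without tumor lowest for both. Igh-VJ558, a heavy chain variable family, had a difference of 5.84, and its second probe gave 6.15. The mean over all its measured probes was lower, at 4.24, so not every probe gave so large a difference. Mzb1, a chaperone of antibody secretion, had a difference of 1.52. Variable genes share sequence, so probes may read several. Of 10 measured plasma cell and antibody genes 3 were higher and 0 lower, but 6 differences were below 0 and the median was -0.13. Only 4 of 22 antibody variable and constant genes were measured on every array, with a median genotype gap of -0.19 without tumor and 2.28 with tumor, since 6, 11, 4 and 19 of them were well above background on the 4 arrays. Fcer2a, the low-affinity IgE receptor of B cells, had levels of -2.78, -1.93, -3.49 and -0.33 and a difference of 2.31. Of 5 measured B cell genes 2 were higher and 0 lower, and 2 differences were below 0. Their median was 0.42 and turned to -0.17 with no filter on dim probes. Iglv1, Jchain and Fcer2a were thus highest on the same array, while other markers of B and plasma cells went the other way. The part of these cells in other results was not tested.

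MHC class I genes were higher with tumor in Tlr3-deficient cells and nearly level in WT. H2-M3, a class I molecule that presents formylated peptides, had levels of -0.26, 0.04, -1.85 and 0.57 and a difference of 2.13. The peptide transporters Tap1 and Tap2 had differences of 1.84 and 1.44. H2-Q7 had levels of 5.36, 5.35, 5.01 and 6.20, so the Tlr3-deficient array with tumor stood above 3 similar arrays. Of 23 measured genes 7 were higher and 0 lower, with a median of 0.74, and 12 passed 2-fold upward with tumor in Tlr3-deficient cells against 0 in WT. The median genotype gap was -0.23 without tumor and 0.64 with tumor. On chromosome 17, which holds the H2 complex, 14 genes had a median of 1.09 and all 7 calls, and the 9 genes elsewhere had a median of 0.14. B2m, the class I light chain on chromosome 2, had levels of 5.95, 6.15, 5.72 and 6.81 and a difference of 0.89. H2 genes share sequence, so probes may read more than 1 of them.

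Type I interferon-stimulated genes as a group did not share this direction. Of 32 measured genes 1 was lower and 0 higher, and the median was -0.25. Differences were below 0 for 27 of them and above 0 for 5, while 52.6% of all genes were above 0. The median stayed below 0 under all 9 alternatives, from -0.25 to -0.06. Median genotype gaps were 0.17 without and -0.08 with tumor. The 1 called gene was Rsad2, the antiviral protein viperin, with levels of -2.55, 0.37, -1.20 and -1.50. Its level was highest on WT with tumor, its difference was -3.23, and a second probe gave -2.97. Isg15, a ubiquitin-like modifier, had a difference of -0.93. Of 20 interferon-gamma response genes 3 were lower and 0 higher, with a median of 0.07 and genotype gaps of 0.47 without and 0.26 with tumor. The promoter windows of Rsad2 (minus strand, GRCm38.p6 chr12:26456403-26456702) and B2m (plus strand, chr2:122147437-122147736) are shown because the 2 genes had differences of opposite sign. That of B2m did not pass 2-fold. Each window holds the interferon response core GAAANNGAAA, and a part of the core in these differences was not tested. Capitals mark the match on either strand. The core is in 3.44% of all 32851 RefSeq windows, and a match is a description only.
Rsad2: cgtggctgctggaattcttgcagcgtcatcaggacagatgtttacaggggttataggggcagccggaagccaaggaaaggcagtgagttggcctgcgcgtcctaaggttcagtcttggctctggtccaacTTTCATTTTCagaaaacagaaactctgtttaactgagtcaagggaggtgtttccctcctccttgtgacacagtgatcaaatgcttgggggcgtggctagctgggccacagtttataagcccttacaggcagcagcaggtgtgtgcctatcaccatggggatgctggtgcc
B2m: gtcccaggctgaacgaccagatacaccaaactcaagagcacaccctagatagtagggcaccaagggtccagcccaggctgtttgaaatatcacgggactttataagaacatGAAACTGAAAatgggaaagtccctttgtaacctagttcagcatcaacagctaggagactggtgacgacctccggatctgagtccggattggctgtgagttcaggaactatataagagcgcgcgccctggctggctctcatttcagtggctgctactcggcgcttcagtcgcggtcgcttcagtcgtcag

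Alveolar macrophage and acute phase genes were higher in the difference. Chil3, a chitinase-like protein of macrophages, had levels of 1.74, 1.49, 1.04 and 3.24 and a difference of 2.45. Of 14 measured macrophage genes 3 were higher and 0 lower, with a median of 0.55 and genotype gaps of -0.59 without and 0.11 with tumor. Fgg, the gamma chain of fibrinogen, had levels of -0.94, -1.27, 0.04 and 2.82, an 8.57-fold difference. Lrg1, a secreted glycoprotein of the acute phase, had a difference of 1.62. Of 20 acute phase genes 5 were higher and 0 lower, with a median of 0.50 and gaps of -0.19 and 0.29. Both Fgg and Lrg1 were highest on the Tlr3-deficient array with tumor.

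Cholesterol genes moved by little but all one way. All 24 measured genes of synthesis and uptake had a difference above 0, with a median of 0.51, although 1 was called, Fdps, which makes farnesyl diphosphate, at 1.25. Sqle, the epoxidase of the pathway, had levels of 3.22, 3.33, 2.55 and 3.40. It was low only on the Tlr3-deficient array without tumor. The median genotype gap was -0.66 without tumor and -0.09 with tumor.

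Matrix genes were lower with tumor in both genotypes, with median changes for elastic fiber genes of -0.36 in WT and -0.96 in Tlr3-deficient cells. Eln, the elastin precursor, had levels of -2.22, -2.91, -0.24 and -3.52 and a difference of -2.58. Fbn2, a microfibril protein, had a difference of -3.22 and Mfap5, which binds fibrillin, one of -1.88. Of 24 elastic fiber genes 7 were lower and 0 higher, with a median of -0.65. Col3a1, a fibrillar collagen, had levels of 2.29, 1.84, 3.54 and 1.22 and a difference of -1.87, and Col1a1 had a difference of -1.18. Of 23 collagen genes 7 were lower and 1 higher, with a median of -0.56. Both groups were highest without tumor in Tlr3-deficient cells, and the median genotype gaps with tumor were -0.06 for elastic fiber genes and -0.02 for collagens.

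Pericyte and smooth muscle markers shared the lower difference of the matrix genes, but not their fall with tumor in WT. Their median tumor changes were 0.29 in WT and -0.42 in Tlr3-deficient cells. Of 14 measured 5 were lower and 0 higher, with a median of -0.87 and genotype gaps of 1.14 without and 0.22 with tumor, and Cnn1, a smooth muscle actin-binding protein, had levels of 0.33, -0.01, 2.04 and 0.27. Of 18 fibroblast markers 5 were lower and 0 higher, but the median was -0.15 and turned to 0.0081 with median centring. Their median genotype gap was 0.64 without tumor and 0.01 with tumor. The matrix lists hold 4 of these 5 lower markers, Col1a1, Col1a2, Col3a1 and Mfap4, so the lists are not separate. Whether cells of these types account for the matrix values was not tested.

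Cell cycle genes were lower, mainly through dim probes. Of 40 measured genes 11 were lower and 0 higher, with a median of -0.72 and genotype gaps of 0.35 without and -0.28 with tumor. Kntc1, a kinetochore checkpoint protein, had levels of -3.95, -2.97, -1.83 and -4.49 and a difference of -3.65. Top2a, the topoisomerase of dividing cells, had a difference of -1.79 and a second probe at -1.22. Over the brighter probes alone the median of the list was 0.03, so its direction depends on dim probes.

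Imprinted growth genes had a median of 0.03, and 6 of 23 were lower and 2 higher. Their median genotype gap was -0.02 without tumor and -0.05 with tumor. Peg3, a paternally expressed zinc finger gene, had levels of -2.88, -3.55, -2.64 and -5.27, a difference of -1.97 and a second probe at -3.14. Mest, a paternally expressed hydrolase, had a difference of -2.18, with the Tlr3-deficient array without tumor the highest.

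Single genes with a lower difference also passed 2-fold in WT only. Reg3g, a secreted antibacterial lectin, had levels of 1.98, 4.64, 0.05 and 0.12 and a difference of -2.58. Rbp7, a retinol-binding protein, had levels of -4.39, -1.06, -3.60 and -4.27, a 15.95-fold lower difference, and with normexp background correction its log2 difference was -1.94. Crb3, an apical polarity protein, had a difference of -3.15, but its WT array without tumor stood below 3 arrays at 0.59 to 1.19.

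Of 19 measured clock genes 6 passed 2-fold downward with tumor in WT and 3 in Tlr3-deficient cells. Dbp, a transcription factor with strong daily rhythm, had levels of 4.02, 1.33, 2.69 and 2.74 and a difference of 2.73. The nuclear receptors Nr1d1 and Nr1d2, which repress the clock gene Arntl, had differences of 1.40 and 1.07. Per1, a clock repressor also induced by glucocorticoids, moved the other way, with levels of 2.11, 1.37, 1.68 and -0.56 and a difference of -1.50. In the difference 3 were higher and 1 lower, with a median of 0.10, and the median genotype gap was -0.23 without tumor and -0.11 with tumor. Ciart, a clock repressor, was lower with tumor in both genotypes, by -2.14 in WT and -1.64 in Tlr3-deficient cells. Arntl itself was higher with tumor in both genotypes, by 1.02 in WT and 0.86 in Tlr3-deficient cells. The labels do not state the time of day of collection, and its part was not tested. The windows of Dbp (plus strand, GRCm38.p6 chr7:45704997-45705296) and Per1 (plus strand, the first of 2 starts, chr11:69098699-69098998) are shown because these genes moved apart. The E-box CACGTG, in capitals, is in the Per1 window and in 7.15% of all windows, and these letters are not in the Dbp window. This too is a description only, sites outside the 300 bases were not searched, and a part of the E-box in these differences was not tested.
Dbp: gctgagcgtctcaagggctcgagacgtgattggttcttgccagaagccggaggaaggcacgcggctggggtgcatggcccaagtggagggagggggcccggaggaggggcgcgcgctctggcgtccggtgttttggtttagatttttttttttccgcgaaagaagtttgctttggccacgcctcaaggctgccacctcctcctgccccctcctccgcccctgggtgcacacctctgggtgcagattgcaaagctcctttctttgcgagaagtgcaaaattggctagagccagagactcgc
Per1: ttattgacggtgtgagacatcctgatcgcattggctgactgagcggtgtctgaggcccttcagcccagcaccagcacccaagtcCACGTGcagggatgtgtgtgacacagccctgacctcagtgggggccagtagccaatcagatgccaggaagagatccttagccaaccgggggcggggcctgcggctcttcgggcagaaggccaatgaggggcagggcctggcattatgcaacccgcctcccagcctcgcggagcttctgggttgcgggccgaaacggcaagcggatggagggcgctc

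Genes with a higher difference that were lower with tumor in WT only included Cd5l, a secreted macrophage protein, with levels of -1.77, -4.97, -3.21 and -2.86 and a difference of 3.55. P2ry14, a receptor for UDP-sugars, had a difference of 2.71, and Cys1, a cilium protein, one of 2.05. Cyp1a1, the main target of the aryl hydrocarbon receptor, was lower in both genotypes, by -3.06 in WT and -1.20 in Tlr3-deficient cells.

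The other genes with the largest differences fell outside these groups. Gatad2b, a chromatin repressor subunit, and Gigyf2, a translation repressor, had differences of 3.26 and 2.59, but their second probes gave -0.21 and -1.37. Veph1 had a difference of -2.98 and the linker histone H1f5 one of -2.84. Acod1, which makes itaconate in myeloid cells, was higher with tumor in both genotypes, with a difference of -1.51, and a probe under its older symbol Irg1 gave -1.15. Itgax, an integrin of macrophages and dendritic cells, was also higher in both, with a difference of 1.51. Where neither genotype passed 2-fold alone, Hs3st3a1, a heparan sulfate sulfotransferase, had a difference of 1.81.

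**Figure D3:**
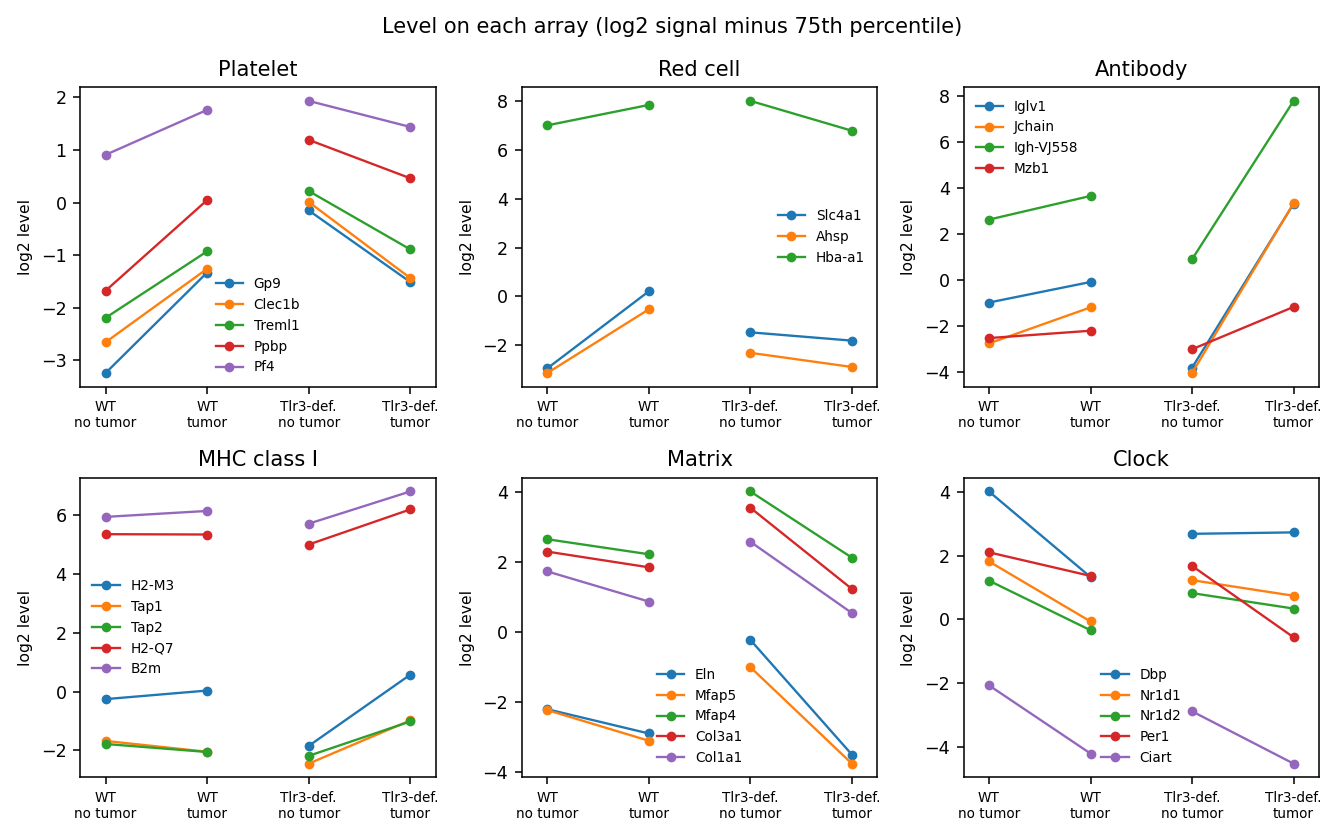
Log2 level relative to the array's 75th percentile on each of the 4 arrays for platelet, red cell, antibody, MHC class I, matrix and clock genes, 1 point per array, with a line joining the arrays of 1 genotype. Platelet lines slope in opposite directions, and Dbp goes from 4.02 to 1.33 in WT and lies at 2.69 and 2.74 in Tlr3-deficient cells.

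Neutrophil genes were higher with tumor in both genotypes. S100a8 and S100a9, the calprotectin subunits of neutrophils, had WT changes of 5.38 and 5.17 and Tlr3-deficient changes of 4.85 and 4.34. Retnlg, a neutrophil resistin-like gene, had levels of -3.69, 0.97, -3.12 and 0.21 and a difference of -1.33. Mpo, an enzyme of early neutrophil granules, had levels of -4.64, -4.20, -4.27 and -1.51 and a difference of 2.32. Of 20 neutrophil genes 9 were measured on all arrays, with 1 higher, 1 lower and a median of -0.33, which turned to 0.27 with brighter probes only and in array columns 52 to 85. Over the 4 arrays, 10, 18, 12 and 18 of the 19 neutrophil genes off chromosomes X and Y were well above background. Their part in the other results was not tested.

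A list of neutrophil attractants and growth factors, which holds chemokines, colony-stimulating factors and interleukins, differed little between genotypes in the scanner data. Of 9 measured genes 0 were higher and 1 lower, the platelet gene Ppbp, and the median was 0.10. Cxcl1 had levels of 3.39, 3.51, 2.78 and 3.16, with a difference of 0.25, and Cxcl2 had one of 0.22. The authors' deposited value table gives other values for these genes. After quantile normalization of the scanner data, 6 of 28397 probes above background on some array departed from that table by more than 1 on the log2 scale, and they belong to 4 genes, Tlr3, Cxcl1, Cxcl2 and Cxcl12. Departures of all other such probes were at most 0.666. In the authors' deposited table Cxcl1 changed by 10.25 with tumor in WT and by 1.40 in Tlr3-deficient cells, against 0.12 and 0.37 in the scanner files. The difference in that table was -8.85 for Cxcl1, -3.69 for Cxcl2, -7.22 and -5.11 for the 2 Cxcl12 probes and -7.22 and -6.37 for the 2 Tlr3 probes. From the scanner files the same 6 differences were 0.25, 0.22, -0.46, 0.76, 0.17 and 0.29. Of the 24 departures, 15 lay within 0.02 of a whole number. What made the 2 sources differ was not tested, and the scanner values are used here.

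Several other lists of cell identity, stress and signaling held few or no genes past 2-fold in the difference. Of 21 AT-II genes, all well above background on all arrays, 0 were called, and 12 changed with opposite sign in the 2 genotypes. Of the 21 differences 17 were above 0, against 52.6% of all genes, and the median was 0.25. This lean was not particular to AT-II genes. Differences were above 0 for 67 of 75 ribosomal protein genes and 36 of 43 vacuolar ATPase and lysosome genes, with medians of 0.22 and 0.29. With quantile normalization the median was 0.15 for AT-II genes and 0.06 for ribosomal protein genes. Sftpc, the surfactant protein C gene that defines these cells, had levels of 8.85, 9.29, 9.38 and 9.03. Alveolar type I genes were lower with tumor in both genotypes, with medians of -0.60 in WT and -0.995 in Tlr3-deficient cells, and 1 of 15 was called. Their differences were below 0 for 14 and above 0 for 1, with a median of -0.27. Genotype gaps of this list were 0.88 without and 0.34 with tumor. Ciliated cell genes were higher in both, with medians of 0.58 and 0.60, and 0 of 18 were called. Medians of the difference were 0.02 for 29 unfolded protein response genes, 0.07 for 20 NF-kB genes, 0.18 for 25 heat shock genes and 0.23 for 20 endothelial genes, with 0 called in each. Of the 29 unfolded protein response genes 14 changed with opposite sign. So did 47 of 75 ribosomal protein genes and 1 of 20 endothelial genes. The share over all genes is not given, so these counts, that of AT-II genes included, are not read as particular to any list. Median tumor changes over all genes were -0.03 in WT and -0.01 in Tlr3-deficient cells, and near 0 a small change sets the sign. Of 19 genes of double-stranded RNA and Toll-like receptor signaling 1 was higher, Cd14, a co-receptor for bacterial lipid, at 1.08, and their median was 0.30.

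**Figure D4:**
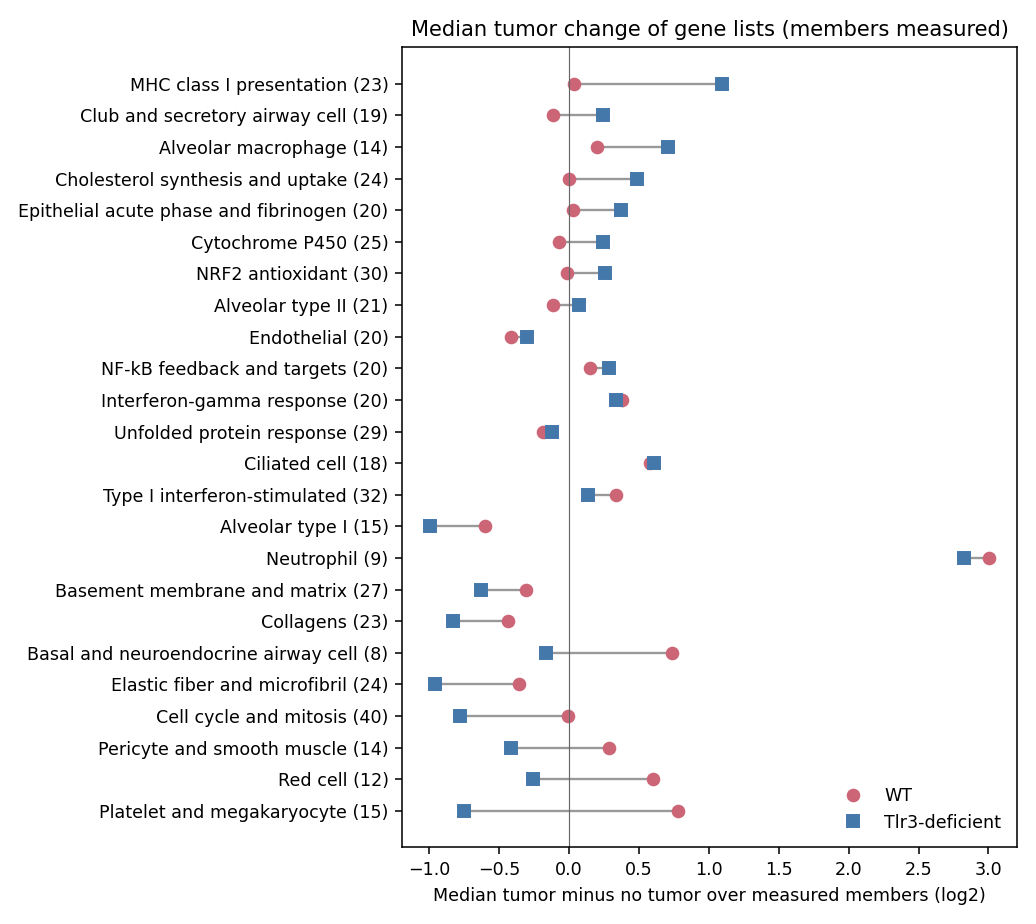
Median log2 tumor change in WT (circles) and Tlr3-deficient cells (squares) over the measured members of 24 gene lists, sorted by the median difference, with the number of members in brackets. MHC class I genes are at the top and platelet genes at the bottom, and neutrophil genes lie far to the right in both genotypes.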

How the data were processed

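One-colour Agilent arrays of design 014868 measured total RNA of sorted AT-II cells in 4 samples. Per the file headers, the authors extracted spot intensity using version 10.7.3.1 of Agilent Feature Extraction, and the array annotation is on build mm9. The deposited processed signal is a background-subtracted linear intensity that was not scaled between arrays. The series value table that the authors deposited holds log2 values. Its making is not stated in the labels, its column medians were 6.31, 6.32, 6.32 and 6.31, and it served only as an alternative.

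From the files, the log2 of the processed signal less its 75th percentile on that array (intensities of 554, 798, 761 and 907 in the order used in the report) was computed over gene probes without outlier flags. Of the spots 61.0% to 65.4% were well above background. Of 41174 probes 27668 were named through RefSeq accessions, and the brightest measured probe stood for a gene. A group has 1 array, so the number of arrays limits the precision and differences of at least 2-fold were described without a test. Members and lists were chosen with earlier results of these data known. The genes named were up to 5 with the largest difference in each class and direction, and, of each list described, members past 2-fold or the largest. Names without a gene symbol were left out. Alternatives were quantile normalization, median centring, normexp with offset 50 (limma 3.58.1, R 4.3.3), the value table, no filter on dim probes, brighter probes, the mean of all probes, array columns 52 to 85 and all chromosomes. A second probe of a gene was added after seeing the data. Python 3.11.15 was used, and the computation was tested on simulated data. Promoter windows came from RefSeq (GRCm38.p6). Some genes are not reported here.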

Additional observations from a re-analysis of the deposited data

Results flagged for a closer look

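Tumor changes past 2-fold in opposite directions were seen in 13 genes with a symbol, and with 1 array per group the difference between genotypes was not tested. The difference was -4.39 for Rec114, -3.28 for Gp9, -3.08 for Krt14, -3.05 for Tnnc2, -2.98 for Tnni2, -2.85 for Clec1b, -2.60 for Hbb-y, -2.38 for Treml1, -2.09 for Diaph3 and -2.09 for Mpped2. It was 2.96 for Bpifa1, 2.72 for Cyp2a4 and 2.67 for Cyp2a5.

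A signal was also seen in data left out of the measured genes. Xist, on the X chromosome, had a difference of 7.87. On the Tlr3-deficient array without tumor 4 Y-linked genes were well above background, against 0 on the other arrays, although every sample is labelled female.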

How the results depend on the processing

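Counts depended on the genes kept and on the background. Higher genes numbered 217 with normexp, 1474 with no filter on dim probes, 139 with brighter probes only and 152 in array columns 52 to 85, against 335. Lower genes numbered 2751, 188 and 201 under the last 3 of these, against 664. Opposite genes numbered 7 with normexp, 253 with no filter, 5 with brighter probes and 4 in columns 52 to 85, against 15. The other alternatives kept these counts within 1.5 times. The filters that keep fewer genes tested 8910 and 7892 genes, and the cause of the normexp values was not tested. The cell cycle median turned to 0.031 with brighter probes, and the neutrophil median to 0.27 there and in columns 52 to 85. Normexp made the differences of 26 of 53 named genes smaller by over 1.5 times. Gatad2b (3.26) and Gigyf2 (2.59) turned to -0.21 and -1.37 in columns 52 to 85, where the same second probe stands for each gene, and a second probe of Klf15 gave 0.17 against -1.65. Of 53 named genes 43 stayed past 2-fold in the same direction with normexp and 51 with median centring. Of genes with a second measured probe, 42 of 59 higher and 103 of 144 lower genes had the same sign there, and 17 and 26 passed 2-fold, while 62.1% of 5531 such genes shared a sign. In columns 1 to 51 5.36% of genes were lower, against 2.90% in columns 52 to 85, where repeated spots varied less (standard deviation 0.148 against 0.353). No paired analysis was possible because each group has 1 array and replicate number 1 in all groups marks no shared animal.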
